A study of Spinacia oleracea with 12 samples.

Results

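Leaf and root of Bloomsdale, the low-oxalate spinach (Spinacia oleracea) cultivar of the study, were compared across genes. The comparison used the 6 Bloomsdale libraries, 3 from leaf and 3 from root, of the 12 libraries of the series. The other 6 libraries came from leaf and root of PI175311, a high-oxalate accession, and are given beside the Bloomsdale values only. A gene was included when it had at least 1 FPKM (fragments scaled to gene length and to the fragments that the library assigned to genes) in at least 3 of the 6 Bloomsdale libraries, which held for 18630 of the 25495 genes. Of these, 14330 had at least 1 FPKM in all 6 libraries, 649 in all 3 leaves and no root, 1668 in all 3 roots and no leaf, and 1983 in other combinations. Among the 6865 genes that were not included, 2591 were at 0 in every Bloomsdale library.

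The plants grew from seed in a growth chamber and were sampled at 6 weeks of age, so tissue was the only difference between the 2 groups that the sources state. The sample labels give a nitrogen supply of 200 ppm, whereas the paper describes a nutrient solution without nitrogen, and which applies was not settled here. The 3 libraries of a tissue came from independent plants, and the sources do not state which leaf and which root shared a plant. A leaf or root library holds RNA of every cell type of that organ, so fewer cells of a type and less RNA per cell cannot be told apart.

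Leaves fix carbon by photosynthesis, and the photorespiration that comes with it makes glycolate and glyoxylate in chloroplasts and peroxisomes. Roots live on imported sugar and take up water, nitrate and minerals. Spinach stores much oxalate in its leaves, and oxalate can arise from glyoxylate, from oxaloacetate and from the breakdown of ascorbate. It can be degraded after activation to oxalyl-CoA, a step that the acyl-activating enzyme AAE3 is known to carry out in Arabidopsis.

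The fragment totals, solved from the FPKM values, of the leaf libraries were 23839177, 20437334 and 23163225, and those of the root libraries were 22375809, 21872016 and 24601403. Pearson's r of log2(FPKM + 1) across genes was 0.958 to 0.985 among the leaves, 0.973 to 0.989 among the roots and 0.680 to 0.747 between leaf and root libraries. None of the gene IDs matched the 39719 genes of the RefSeq table, so photosynthetic and root marker genes could not be looked up and the tissue labels were not checked against them. The only roles given here are those the paper assigns to 15 IDs, and all other genes are described by ID or by count.

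Most of the included genes differed between the tissues. On the deposited FPKM scale, 12942 of 18630 genes (69.5%) passed an adjusted p of 0.05 (limma on log2(FPKM + 0.1), Benjamini-Hochberg over all 18630 genes), with 2947 higher in leaf (15.8%) and 9995 higher in root (53.7%). After median-of-ratios scaling, which centres the libraries on their typical gene, 4752 genes were higher in leaf (25.5%) and 5074 in root (27.2%). The leaf share of the calls was thus 22.8% on the deposited scale and 48.4% after that scaling. All 2947 leaf calls and 5074 of the root calls were made on both scales, 4921 genes were higher in root on the deposited scale only, 1805 were higher in leaf after the scaling only, and 0 genes were called in opposite directions. The scaling divided the leaf libraries by 0.715, 0.951 and 0.751 and the root libraries by 1.25, 1.30 and 1.24. It thus raised leaf values and lowered root values. A leaf call could hardly be lost by this shift, and mainly the root calls were put at risk. The number of root calls fell to 6619 of 16847 tested genes without root 1 and to 6333 of 16854 without root 2. These fits still asked for 1 FPKM in 3 libraries, so genes on in root alone left the test.

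The reason for printing both scales lies in the centre of the distribution. The median log2 fold change, leaf minus root, was -0.71 over all tested genes on the deposited scale and -0.055 after median-of-ratios scaling. A gene near -0.71 on the deposited scale therefore moved with the typical gene, and its place among the root calls depends on the scale. On the deposited scale the middle of the distribution ran from -1.36 at the lower quartile to 0.0087 at the upper quartile. The median change was 2.31 among genes called higher in leaf and -1.25 among those called higher in root.

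**Figure D1:**
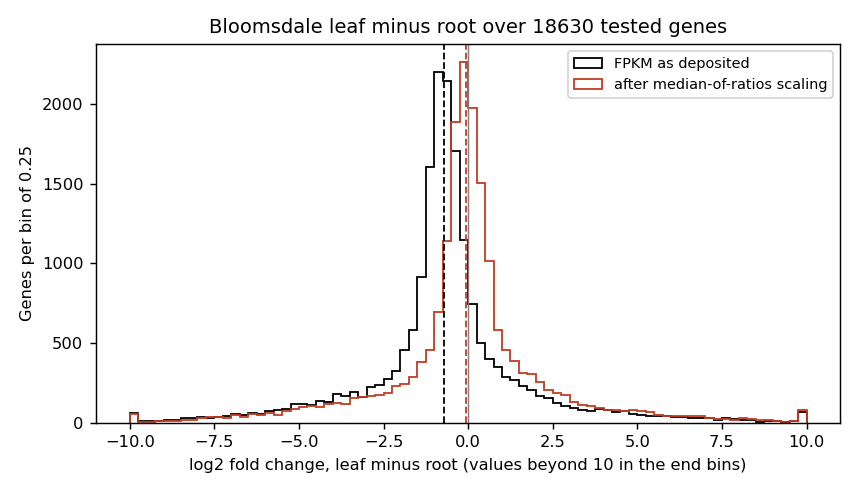
Number of the 18630 tested genes in each bin of log2 fold change (leaf minus root, horizontal axis, bins of 0.25), with the deposited FPKM in black and the values after median-of-ratios scaling in red. Dashed lines mark the medians, -0.71 and -0.055. The shape is shared and the black curve lies to the left, so that most of its mass is below 0.

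Large differences were common in both directions and less dependent on the scale. A change of at least 3 on the log2 scale was called for 1147 leaf genes and 2099 root genes as deposited, and for 1438 and 1673 after the scaling. At 5 or more, 553 leaf genes and 917 root genes were called as deposited, and 699 and 721 after the scaling. The filter let in 649 genes through the leaves alone and 1668 through the roots alone. For such genes the direction followed from the values that let them in, and their part in these counts was not counted. At 8 or more the numbers were 147 and 186 as deposited but 200 and 136 after the scaling, so the order of the tissues at this size depended on the scale.

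The largest called differences with non-overlapping values were carried by Spo06839 and Spo03404 in leaf and by Spo05786 and Spo19340 in root. The files and the text of the paper used here give no name or role for these 4 IDs. Spo06839 had 44179, 81047 and 42785 FPKM in the leaves and 18.4, 4.54 and 6.45 FPKM in the roots. It ranked first by mean FPKM in leaf and made up 4.51%, 8.98% and 4.63% of all FPKM in the 3 leaf libraries. Its log2 fold change was 12.66 (SE 0.53, adjusted p = 2.59e-06 by limma with Benjamini-Hochberg).

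Spo03404 varied widely among the leaves, at 4380, 2752 and 453 FPKM, and had 0 fragments in all 3 roots. Its 43126 leaf fragments against the floor of 3 fragments over the root group put it at least 14676-fold higher in leaf relative to library totals. The fitted log2 change was 14.10 (SE 0.78, adjusted p = 9.75e-06 by limma with Benjamini-Hochberg), a value that depends on the 0.1 FPKM added before the logarithm. The recovered length of both leaf genes was 252 bases, and their levels did not follow the same order over the 3 leaves.

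Spo05786 was the most abundant gene of Bloomsdale roots, with 32444, 36121 and 14057 FPKM, and reached 0.081 FPKM in leaf 3 and 0 in the other leaves. That is 1 fragment in leaf against 992352 in root, a ratio relative to library totals of 972036 with a 95% interval of 174461 to 38393400 (exact binomial, counting error only, here and below). Spo19340, at rank 8 in root, had 4541, 4125 and 1756 FPKM there and 1 fragment in all leaves, again in leaf 3. Both genes were lowest in root 3, and their log2 changes were -17.67 (SE 0.41, adjusted p = 5.11e-07) and -14.70 (SE 0.41, adjusted p = 7.79e-07) by limma with Benjamini-Hochberg. All 4 genes were called in the same direction after median-of-ratios scaling, which for the leaf genes was nearly given. Spo03404, Spo05786 and Spo19340 also passed the filter through 1 tissue alone.

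**Figure D2:**
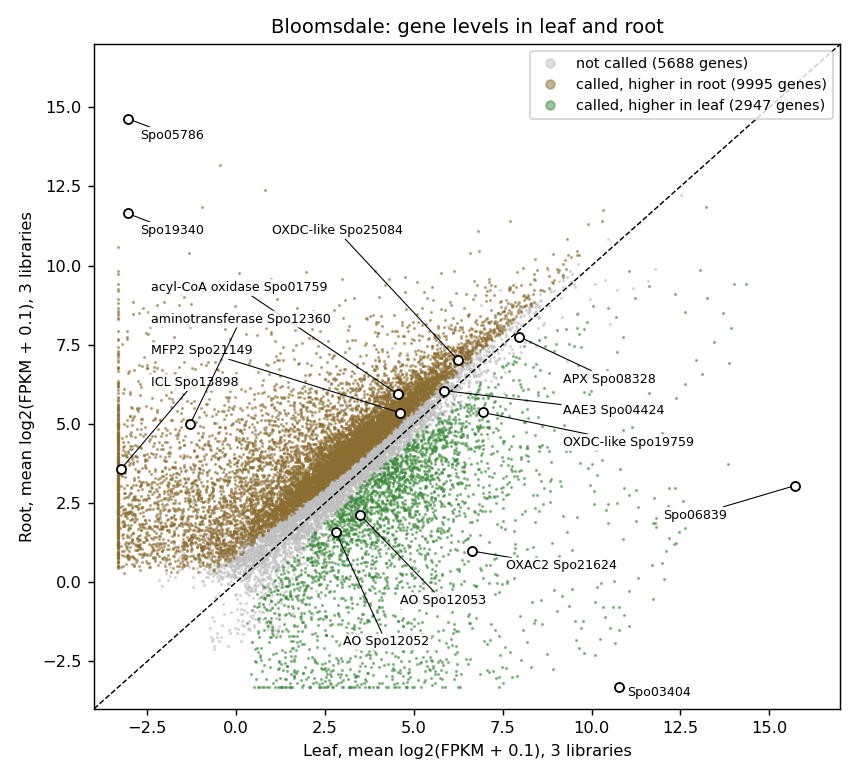
Mean log2(FPKM + 0.1) of each tested gene in the 3 leaf (horizontal) and 3 root (vertical) libraries, coloured by call on the deposited scale, with the named genes as open circles and equal levels on the dashed line. The brown band of root calls follows the dashed line closely at all levels, and Spo05786, Spo19340, Spo06839 and Spo03404 lie farthest from it.

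On the deposited scale, genes on in 1 tissue and off in the other were more numerous for root. The rule asked for at least 1 FPKM in all 3 libraries of a tissue and under 0.05 FPKM in all 3 of the other, with no test. By it, 482 genes were on in root and off in leaf, and 103 were on in leaf and off in root. The deposited scale places the typical gene lower in leaf (median log2 change -0.71), and the count was not repeated after median-of-ratios scaling. The root-only genes had a median level of 8.49 FPKM in root and a maximum of 1642 FPKM, with 215 at 10 FPKM or more and 30 at 100 or more. The rule depends on gene length, since 1 fragment of a short gene exceeds 0.05 FPKM. Spo05786 and Spo19340, at 0.081 and 0.075 FPKM in leaf 3 from 1 fragment each, therefore did not meet it. ICL (Spo13898), a longer gene also with 1 leaf fragment (0.020 FPKM), did. The leaf-only genes had a median of 7.89 FPKM and a maximum of 2528 FPKM (Spo03404), with 45 at 10 or more and 3 at 100 or more. The 482 and the 103 genes were also called by limma, which the rule itself makes likely. In PI175311, 176 of the 482 root-only genes (36.5%) met the same rule, which was 66.9% of the 263 root-only genes there, and 26 of the 103 leaf-only genes (25.2%) did, which was 37.1% of the 70 there. None of the 482 or the 103 genes showed the opposite pattern in PI175311.

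The leaf libraries gave larger shares of their FPKM to a few genes than the root libraries did, a difference that 3 libraries against 3 cannot bring under a p of 0.05. The 100 most abundant genes of each library held 56.8%, 45.5% and 50.6% of total FPKM in the leaves and 23.9%, 23.0% and 21.4% in the roots. The tissues did not overlap, with means 28.2 percentage points apart (exact permutation test, 2-sided, p = 0.10, the smallest p that this design allows). The 10 most abundant genes held 24.9%, 21.0% and 17.8% in leaf and 11.0%, 11.0% and 7.14% in root (exact permutation test, p = 0.10). To reach 50% of total FPKM took 61, 152 and 96 genes in the leaves and 771, 844 and 823 in the roots. By the 100-gene share leaf 2 was the least concentrated leaf, although it held the most abundant gene of all 6 libraries.

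On the deposited scale, the root libraries also had the larger numbers of genes at 1 FPKM or more. At least 1 FPKM was found for 16138, 16710 and 16441 genes in the leaves (mean 16430 ± 286 SD, n = 3) and for 17953, 17944 and 18037 in the roots (17978 ± 51.3 SD, n = 3), again without overlap (exact permutation test, p = 0.10). The median of log2(FPKM + 1) was 2.25 ± 0.16 in leaf and 2.81 ± 0.03 in root (SD, n = 3, exact permutation test, p = 0.10). Both the gene counts and this median depend on the scale and were not repeated after median-of-ratios scaling. With 4 such measures in the family, the Benjamini-Hochberg adjusted value of each was 0.10, so none could pass 0.05. FPKM are scaled to gene length, so the concentration was also counted in recovered fragments, an alternative chosen after the values were seen. The 100 genes with the most fragments held 37.0%, 26.0% and 32.6% of the leaf fragments and 17.3%, 16.5% and 16.2% of the root fragments, again without overlap but with a smaller difference. The top gene held 1.52%, 2.04% and 1.08% of the fragments in leaf and 1.73%, 1.93% and 1.45% in root, where the tissues overlapped. The part of this concentration in the median of -0.71 was not tested.

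**Figure D3:**
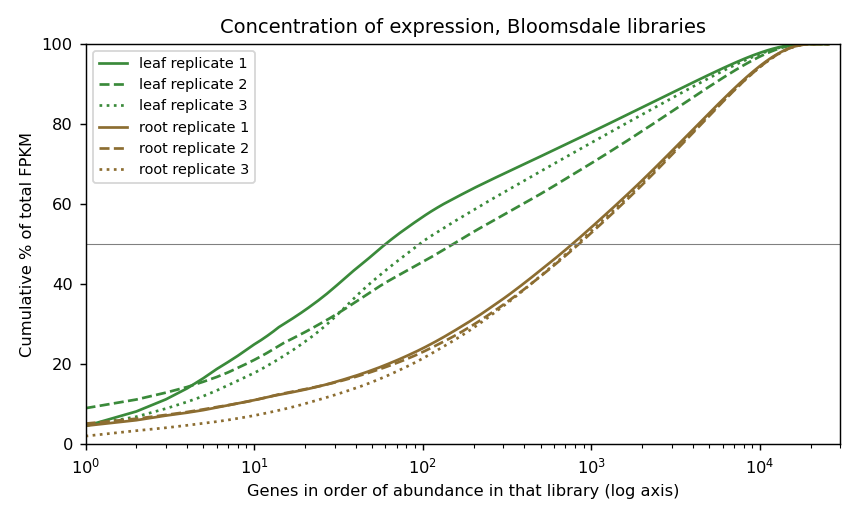
Cumulative percentage of total FPKM (vertical) against the number of genes, in order of abundance within each library (horizontal, log axis), for the 3 leaf (green) and 3 root (brown) libraries. The leaf curves cross the 50% line at 61 to 152 genes and the root curves at 771 to 844.

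The genes called higher in leaf were few but took most of the leaf's expression. They held 68.2%, 60.7% and 67.8% of total FPKM in the leaves and 6.59%, 5.01% and 7.44% in the roots. The genes called higher in root held 72.6 ± 2.60% in the roots and 17.8 ± 3.20% in the leaves (SD, n = 3). These shares describe genes chosen on the same values and were not tested. Median recovered lengths were 1507 bases for the leaf calls and 1587 for the root calls, but 747 for the 100 genes with the highest mean FPKM in leaf and 946.5 for those of root, and short genes reach a higher FPKM at the same number of fragments.

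Among the 100 genes with the highest mean FPKM in leaf, 88 were higher in leaf, 2 in root and 10 were not called. The 88 leaf calls, like all leaf calls, were made on both scales. The median log2 change of all 100 genes was 7.91, and in roots these 100 genes held 5.69%, 3.57% and 6.76% of FPKM. Of the 100 most abundant genes of root, 71 were higher in root, 8 in leaf and 21 were not called, with a median change of -1.27, and 49 of the root calls and the 8 leaf calls were made on both scales. The 100 root genes still held 19.4%, 12.6% and 12.6% of FPKM in the leaves. The lists shared 19 genes. Being in a list for a high level in 1 tissue favours a call in that tissue, so these counts are descriptions.

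The share of leaf calls was larger among abundant genes. Of the 402 genes with a mean of at least 250 FPKM over the 6 libraries, 37.3% were higher in leaf and 43.0% in root, and 43.0% and 21.4% after median-of-ratios scaling. Of the 7716 genes between 10 and 50 FPKM, 16.7% were higher in leaf and 58.0% in root, and 28.1% and 27.2% after the scaling. Of the 1692 genes under 2 FPKM, 12.4% were higher in leaf and 45.4% in root, and 16.7% and 31.9% after the scaling. The mean over both tissues lets a gene such as Spo06839 into the top group through leaf alone, so these shares are a description.

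Where the oxalate-related genes are expressed was examined for the 15 IDs that the paper's text prints with a role. Most of them were chosen there for differences between PI175311 and Bloomsdale in these same leaf or root libraries, so they are no independent sample of the pathway. Of the 15, 11 passed the filter, 3 were higher in leaf, 5 were higher in root and 3 were not called, against 15.8% and 53.7% of all tested genes. After median-of-ratios scaling 4 were higher in leaf and 2 in root, and the 5 root calls became 3 without root 1 or root 3 and 2 without root 2, fits in which ICL and the aminotransferase no longer had 3 libraries at 1 FPKM. Their median log2 change of -0.21 compares with -0.71 over all tested genes. Called on both scales were OXAC2, the ascorbate oxidase Spo12053 and the oxalate decarboxylase-like Spo19759 in leaf, and isocitrate lyase and the aminotransferase Spo12360 in root. For the leaf genes the second call adds little, since the scaling raises leaf against root. Leaf and root values did not overlap for 7 of the 11 tested genes, against 74.5% of all tested genes.

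Isocitrate lyase (ICL, Spo13898) splits isocitrate into glyoxylate and succinate in the glyoxylate cycle, the route by which plants turn stored fat into sugar precursors. It had 0, 0 and 0.020 FPKM in Bloomsdale leaves and 5.91, 15.1 and 18.7 FPKM in roots. The leaf value is 1 fragment over the 3 libraries, against 2020 fragments in root, a ratio relative to library totals of 1979 (95% interval 355 to 78191, counting error only). ICL was thus close to absent from the leaf counts and present in every root, with root 1 lowest. It passed the filter through root alone, so its direction followed from the values that let it in. The log2 fold change was -6.82 (SE 0.47, 95% interval -7.92 to -5.71, adjusted p = 1.75e-05 by limma with Benjamini-Hochberg) and -6.45 after median-of-ratios scaling. With so few leaf fragments its size was set by the added value, at -3.69 with 1 FPKM added and -9.69 with 0.01, and it was called in both (adjusted p = 1.04e-04 and 4.31e-05, limma).

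The other genes of this group act in peroxisomal beta-oxidation of fatty acids, which yields the acetyl-CoA that the glyoxylate cycle consumes. The multifunctional protein gene MFP2 (Spo21149), which catalyses middle steps of each round, had 21.4, 31.1 and 21.9 FPKM in leaf and 39.2, 47.5 and 36.2 in root. Acyl-CoA oxidase (Spo01759), which catalyses the opening step, had 22.4, 39.0 and 14.7 FPKM in leaf and 71.0, 72.0 and 44.2 in root. Neither gene's leaf and root values overlapped, but the differences were modest and depended on the scale. MFP2 was higher in root on the deposited scale, with a log2 change of -0.74 (adjusted p = 0.0142, limma with Benjamini-Hochberg), and at -0.075 after median-of-ratios scaling (adjusted p = 0.633, not called). For acyl-CoA oxidase the change was -1.37 (adjusted p = 0.0136, limma with Benjamini-Hochberg) and -0.71 after the scaling (adjusted p = 0.103, not called). The MFP2 call was also lost without leaf 1 (adjusted p = 0.0574) or root 2 (adjusted p = 0.0637).

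OXAC2 (Spo21624), a putative oxaloacetate acetylhydrolase, would cleave oxaloacetate to oxalate and acetate, an activity known from fungi. It had the largest leaf excess of the 11 tested genes, with 108, 71.6 and 125 FPKM in leaf and 0.946, 1.09 and 6.11 FPKM in root. Root 3 stood well above the other roots and well below every leaf. Leaf exceeded root by 5.64 on the log2 scale (SE 0.67, 95% interval 4.05 to 7.24, adjusted p = 3.81e-04 by limma with Benjamini-Hochberg) and by 6.28 after median-of-ratios scaling. Over the pooled fragments the ratio was 36.2 (95% interval 32.1 to 40.8). That interval holds counting error only, not the spread between plants, and root 3 gave 220 of the 286 root fragments.

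Glyoxylate can be removed by transamination to glycine or by reduction to glycolate. The putative mitochondrial alanine-glyoxylate aminotransferase (Spo12360) had 0.221, 0.774 and 0.145 FPKM in leaf and 26.1, 34.6 and 36.2 FPKM in root. The 3 roots were close to each other and far above every leaf, where 51 fragments were found in all, against 4660 in root. Its log2 change was -6.29 (SE 0.48, adjusted p = 2.77e-05 by limma with Benjamini-Hochberg) and -5.73 after median-of-ratios scaling. Together with ICL it was among the 917 root genes called with a change of at least 5. Like ICL, it passed the filter through root alone, so its direction followed from the values that let it in.

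The 3 glyoxylate/succinic semialdehyde reductase-like genes were at or near 0 in both Bloomsdale tissues and were not tested. Spo04579 and Spo00830 had 0 fragments in all 6 libraries, which at 3 fragments over a tissue allows up to 0.200 FPKM in leaf and 0.196 in root for Spo04579, and 0.108 and 0.106 for Spo00830. Spo26769 had 0 fragments in 5 libraries and 1 fragment, 0.048 FPKM, in root 3. In PI175311 the same genes were present in some libraries and at or near 0 in others of both tissues. Spo04579 had 16.4, 0 and 9.64 FPKM in PI175311 leaves and 13.6, 26.1 and 0 in its roots.

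Ascorbate is oxidized by peroxidases and oxidases, and its further breakdown can release oxalate. The ascorbate peroxidase gene Spo08328 (APX) had 386, 226 and 180 FPKM in leaf and 238, 99.8 and 418 in root. By mean FPKM it was the most abundant of the 15 in both tissues, although in root 2 it lay below Spo25084 (113 FPKM), and it held rank 353 of 25495 genes in leaf and 415 in root. The values overlapped, and the difference of 0.22 on the log2 scale (95% interval -1.04 to 1.48, adjusted p = 0.725 by limma with Benjamini-Hochberg) was smaller than the spread within a tissue. Its sign turned to -0.093 without leaf 1 and to -0.33 without root 2. After median-of-ratios scaling the change was 0.88 (adjusted p = 0.257, not called).

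The ascorbate oxidases, which act in the cell wall space, were found at lower levels in both tissues. Spo12053 had 5.65, 13.7 and 17.6 FPKM in leaf and 6.96, 4.23 and 2.62 in root, with leaf 1 inside the root range. Spo12052 had 3.48, 7.74 and 12.0 FPKM in leaf and 4.43, 3.02 and 1.80 in root, also with leaf 1 inside the root range. The levels of this pair moved together, with a ratio of Spo12052 to Spo12053 of 0.565 to 0.715 over the 6 libraries. If the sequences are near-identical, reads may have been split between them, which the sources do not settle, so the pair is not counted as separate evidence.

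Spo12053 was higher in leaf by 1.36 on the log2 scale (95% interval 0.18 to 2.54, adjusted p = 0.0429 by limma with Benjamini-Hochberg), and by 2.01 after median-of-ratios scaling (adjusted p = 0.0144). This call was lost without leaf 2 (adjusted p = 0.112), leaf 3 (0.125), root 2 (0.0990) or root 3 (0.122), all by limma with Benjamini-Hochberg. It was also lost in 1 fit over the 12 libraries (adjusted p = 0.224, 95% interval -0.74 to 3.47) and without limma's trend and robust moderation (adjusted p = 0.0509). The change of Spo12052 was 1.22 (95% interval 0.026 to 2.42, adjusted p = 0.0644 by limma with Benjamini-Hochberg) and did not pass. It was called at 1.87 after median-of-ratios scaling (adjusted p = 0.0213) and at 1.70 without leaf 1 (adjusted p = 0.0185).

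On the deposited scale, the genes assigned to oxalate degradation fell on different sides. After median-of-ratios scaling, 1 of them was called higher in leaf and 0 higher in root. The 3 oxalate decarboxylase-like genes carry the name of an enzyme, known from fungi, that splits oxalate into formate and carbon dioxide, and their activity in spinach is not established. Spo19759 had 112, 157 and 106 FPKM in leaf and 50.5, 49.3 and 27.6 in root, with every leaf above every root. It was higher in leaf by 1.59 (SE 0.28, 95% interval 0.93 to 2.24, adjusted p = 0.00195 by limma with Benjamini-Hochberg) and by 2.25 after median-of-ratios scaling.

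Spo25084 had the reverse arrangement, with 69.7, 70.2 and 89.1 FPKM in leaf and 133, 113 and 141 in root. It was higher in root on the deposited scale, at -0.76 (SE 0.18, adjusted p = 0.00638 by limma with Benjamini-Hochberg), and at -0.098 after median-of-ratios scaling (adjusted p = 0.716, not called). Spo06441 stayed under 1 FPKM in every library, with 0.166, 0.291 and 0.200 FPKM in leaf and 0.532, 0.665 and 0.780 in root, and was not tested. These values rest on 22 leaf and 69 root fragments, a ratio of 3.07 (95% interval 1.88 to 5.21, counting error only).

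AAE3 (Spo04424), the oxalyl-CoA synthetase candidate, had means of 59.8 FPKM in leaf and 66.4 in root. The libraries stood at 63.6, 78.0 and 37.9 FPKM in leaf and 71.8, 65.9 and 61.4 in root, and the leaves spanned the whole root range. The log2 change was -0.21 (95% interval -0.84 to 0.42, adjusted p = 0.504 by limma with Benjamini-Hochberg) and did not pass. Its sign was not settled, at 0.45 after median-of-ratios scaling (adjusted p = 0.144) and 0.089 without leaf 3.

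**Figure D4:**
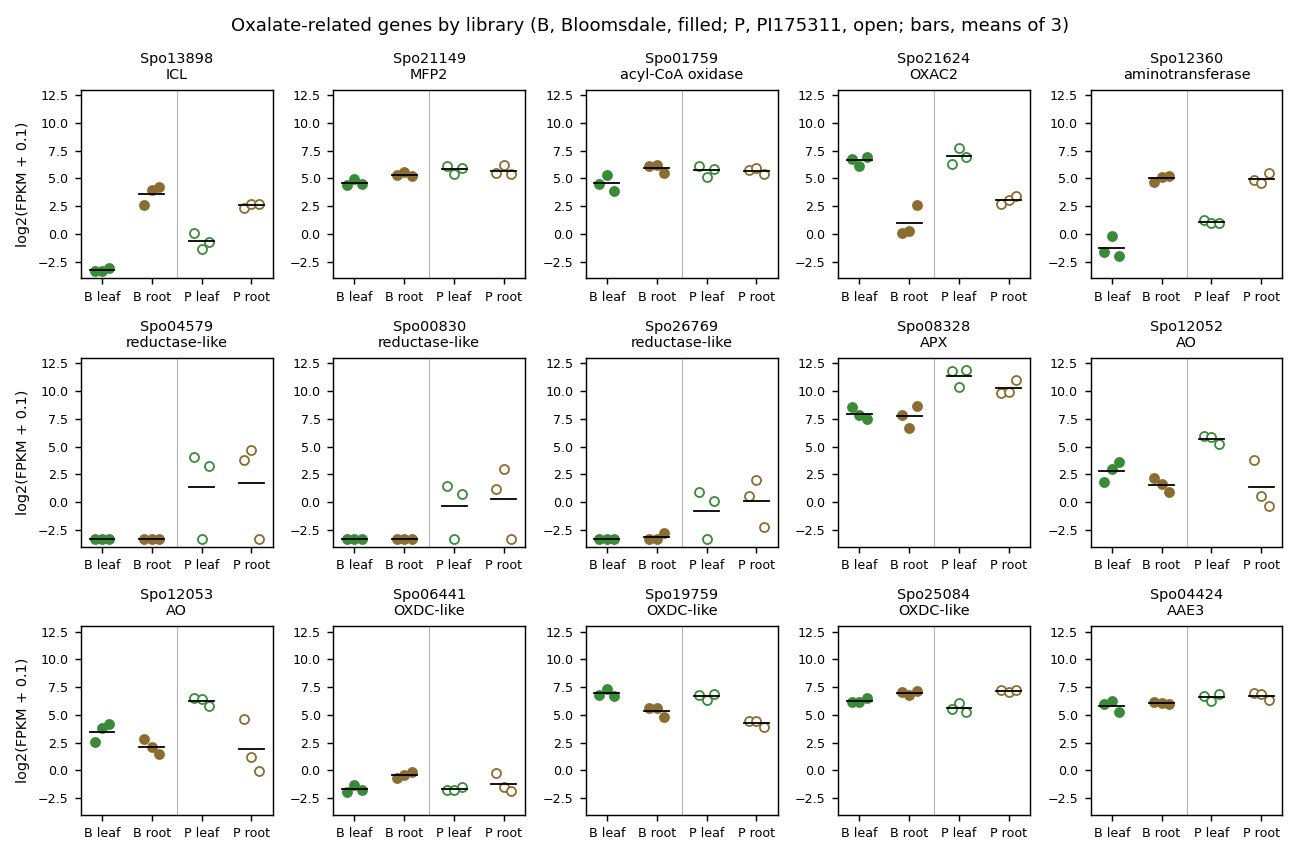
log2(FPKM + 0.1) (vertical) of the 15 oxalate-related genes in each library, 1 gene to a panel, with Bloomsdale leaf and root filled, PI175311 leaf and root open, and bars at the means of 3 libraries. In Bloomsdale, ICL and the aminotransferase sit near the floor in leaf and well above it in root, OXAC2 does the reverse, and the 3 reductase-like genes lie at the floor in both tissues.

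Ordered by mean FPKM, a length-scaled level, the 15 genes of Bloomsdale leaf ran APX, Spo19759, OXAC2, Spo25084, AAE3, acyl-CoA oxidase, MFP2, Spo12053, Spo12052, the aminotransferase, Spo06441, ICL and the reductase-like genes. Neighbours in this order whose library values did not overlap were APX and Spo19759, MFP2 and Spo12053, Spo12052 and the aminotransferase, and Spo06441 and ICL. In root the order was APX, Spo25084, AAE3, acyl-CoA oxidase, Spo19759, MFP2, the aminotransferase, ICL, Spo12053, Spo12052, OXAC2, Spo06441 and the reductase-like genes. There the neighbours without overlap were Spo25084 and AAE3, MFP2 and the aminotransferase, the aminotransferase and ICL, OXAC2 and Spo06441, and Spo06441 and Spo26769. OXAC2 moved from the third place in leaf to the eleventh in root, and the ranges of the other neighbours in each order overlapped. Ranges were compared over libraries and not within them. Within libraries, Spo12053 exceeded Spo12052 in every leaf and root, and acyl-CoA oxidase exceeded Spo19759 in every root.

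The tissue difference of Bloomsdale was then set beside that of PI175311, which shares no library with it. Over the 17165 genes tested in both genotypes, the log2 changes had a Pearson r of 0.909 and a Spearman rho of 0.824 across genes, which are not independent replicates. The sign was the same for 89.1% of these genes, and for 81.2% after median-of-ratios scaling. Of the 17817 genes tested in PI175311, 2804 (15.7%) were higher in leaf and 7618 (42.8%) in root, or 3926 and 3457 after median-of-ratios scaling. Its leaf calls numbered 1798 without PI175311 leaf 1, and its root calls 4467 without PI175311 root 1, fits that also lose genes on in that tissue alone. Genes higher in leaf in both genotypes numbered 2179, which is 79.4% of the Bloomsdale and 83.0% of the PI175311 leaf calls among the shared genes. Genes higher in root in both numbered 6593, which is 72.0% and 88.2% of the root calls. Opposite calls were made for 21 Bloomsdale leaf genes and 31 Bloomsdale root genes. Over all tested genes, the leaf and root calls were 15.8% and 53.7% in Bloomsdale and 15.7% and 42.8% in PI175311. The shared and opposite calls are given for the deposited scale only. There the median change was -0.71 in Bloomsdale and -0.62 in PI175311.

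Where the tissue difference itself differed was tested by the interaction of genotype and tissue over all 12 libraries. Of 19549 genes, 442 (2.26%) passed an adjusted p of 0.05 (limma with Benjamini-Hochberg). Leaf minus root was larger in Bloomsdale for 150 of these, with median log2 changes of 1.35 in Bloomsdale and -1.45 in PI175311. It was smaller in Bloomsdale for 292, with median changes of -3.36 in Bloomsdale and -0.0036 in PI175311. Of the latter, 222 were called higher in root in Bloomsdale, and 79 were so in PI175311. Over all tested genes the root calls were 53.7% in Bloomsdale and 42.8% in PI175311. These medians and calls come from the values that selected the genes, so they are descriptions. The counts of 150 and 292 moved with single libraries. Without a Bloomsdale leaf they were 42 and 86 (leaf 1), 172 and 628 (leaf 2) or 55 and 132 (leaf 3). Without a Bloomsdale root they were 32 and 54 (root 1), 28 and 46 (root 2) or 124 and 187 (root 3). They were 75 and 109 without PI175311 leaf 1 and 59 and 124 without PI175311 leaf 3.

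Of the 15 oxalate-related genes, 14 could be tested for interaction and 1, ICL, was called. ICL had 0.940, 0.300 and 0.487 FPKM in PI175311 leaves and 4.82, 6.32 and 6.57 in its roots, so it was higher in root there too, by a log2 change of -3.25 (adjusted p = 0.0011, limma with Benjamini-Hochberg). The tissue difference was larger in Bloomsdale by -3.56 (95% interval -5.02 to -2.11, adjusted p = 0.0241, limma with Benjamini-Hochberg). The paper singled out ICL for its level in PI175311 against Bloomsdale leaves, the same libraries, so this is not independent evidence. The call was lost without Bloomsdale leaf 1 (adjusted p = 0.0654), leaf 3 (0.0505) or root 2 (0.0937) and without PI175311 leaf 1 (0.0543) or leaf 3 (0.0545), by limma with Benjamini-Hochberg.

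For the aminotransferase Spo12360 the interaction was -2.39 (adjusted p = 0.0631, limma with Benjamini-Hochberg) and did not pass, with 2.31, 1.92 and 1.84 FPKM in PI175311 leaves and 29.5, 23.8 and 44.1 in its roots. It passed without Bloomsdale leaf 2 (adjusted p = 0.00656, limma with Benjamini-Hochberg). OXAC2 was higher in leaf in PI175311 by 3.95 on the log2 scale, and the interaction of 1.70 did not pass (95% interval -0.19 to 3.58, adjusted p = 0.358 by limma with Benjamini-Hochberg), while it was called at 2.52 without Bloomsdale root 3 (adjusted p = 0.0494). The ascorbate oxidases had larger leaf excesses in PI175311, at 4.33 for Spo12052 and 4.31 for Spo12053, yet the roots there ranged from 0.696 to 13.9 FPKM for Spo12052 and the interactions of -3.10 and -2.95 did not pass (adjusted p = 0.241 and 0.307, limma with Benjamini-Hochberg). Without PI175311 root 1 both interactions passed (adjusted p = 0.0182 and 0.0203, limma with Benjamini-Hochberg). MFP2 and acyl-CoA oxidase, at -0.74 and -1.37 in Bloomsdale, stood at 0.14 and 0.049 in PI175311, with interactions that did not pass (adjusted p = 0.263 and 0.200, limma with Benjamini-Hochberg). Interactions that miss the threshold do not show that the genotypes were alike.

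**Figure D5:**
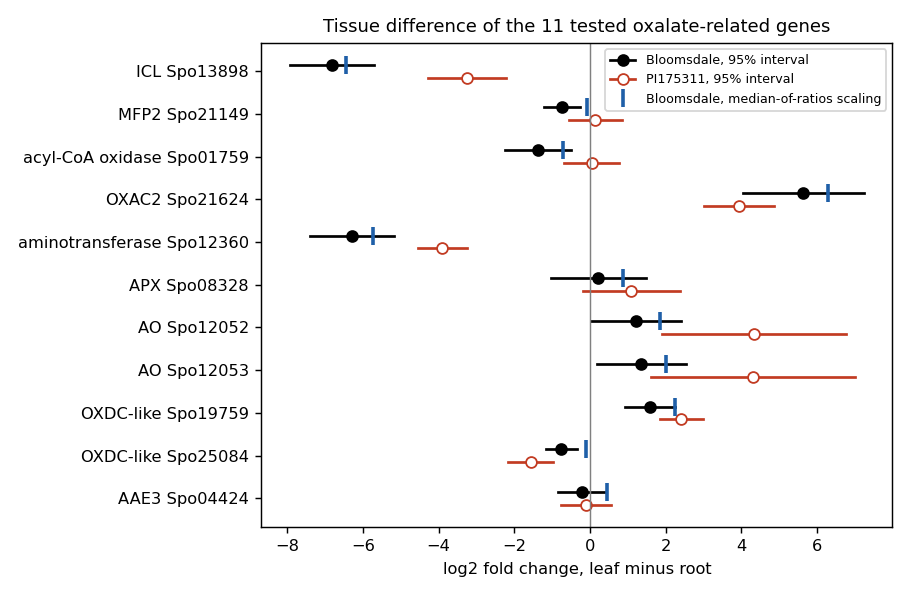
log2 fold change, leaf minus root (horizontal), of the 11 oxalate-related genes tested in Bloomsdale, with 95% intervals from limma for Bloomsdale (filled) and PI175311 (open) and a blue bar for Bloomsdale after median-of-ratios scaling. The Bloomsdale intervals of ICL (-7.92 to -5.71) and OXAC2 (4.05 to 7.24) lie far from 0 on opposite sides, and the blue bars lie to the right of every filled point.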

How the data were processed

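RNA from Bloomsdale and PI175311 leaves and roots was sequenced as paired-end reads, and the authors deposited FPKM per gene and library. In the paper the authors name Bowtie 2.2.3 and TopHat 2.0.12 for alignment, HTSeq 0.6.1 for counting and DESeq 1.18.0 for testing. Their submitted processing notes list fastp, HISAT2 2.1.0, featureCounts and DESeq2, also tools of the authors. Which of these made the deposited values, and the genome build, are not given in the sources used here. FPKM divide a library's fragments by its own total, so a tissue that spends more fragments on a few genes shows lower FPKM elsewhere.

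Because FPKM are whole fragments divided by gene length and library total, fragments were solved from the values. Of 21554 genes above 0 in at least 6 libraries, 21552 had a solution within 1e-04 fragments plus 2e-08 of the number, against 11 of 2000 genes after the totals were altered. For each gene the smallest solution was kept. For genes above 0 in fewer than 6 libraries it was multiplied until the gene length was whole and above a set minimum. Fragments of genes seen in few libraries may still be misstated. The totals of 20437334 to 24601403 fragments set the depth, the floors of 3 fragments and the counting intervals, and sequencing reads without molecular identifiers are not independent molecules.

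Leaf was compared with root with limma 3.58.1 (R 4.3.3), using log2(FPKM + 0.1), a mean-variance trend and robust moderation, for the genes that 3 or more of the 6 libraries held at 1 FPKM or above. p-values were adjusted by Benjamini-Hochberg over all tested genes, with a threshold of 0.05, and fold changes of low genes are understated by the added 0.1. The interaction came from 1 limma fit over 12 libraries. Library measures were compared by 2-sided exact permutation tests in Python 3.11.15 with scipy 1.17.1, numpy 2.4.6 and pandas 2.3.3, and plots were drawn with matplotlib 3.10.9. The fit was tested on simulated data. Alternatives were another added value (1 or 0.01 FPKM), the filter dropped or replaced by a mean of 5 FPKM, scaling by median of ratios or quantiles, a joint fit of the 12 libraries, limma without its trend, a replicate block, an absolute log2 change of at least 1, and each library left out. Limma-voom on recovered fragments was chosen once values had been seen.

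The genes named are the 15 whose IDs the paper's text prints, and the 2 higher in leaf and 2 higher in root with the largest change among called genes with non-overlapping values. These members and lists were chosen with earlier results of these data known. Marker lists planned for leaf and root were not used, since 0 of the gene IDs matched the RefSeq table. Genes without a printed ID, oxalate contents, RT-qPCR and raw reads were not analysed here.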

Additional observations from a re-analysis of the deposited data

Results flagged for a closer look

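The tissue difference of isocitrate lyase (Spo13898) differed between the genotypes by -3.56 on the log2 scale in the interaction test (adjusted p = 0.0241, limma with Benjamini-Hochberg), and all 3 Bloomsdale leaves lay below all 3 PI175311 leaves. Over all genes, the same test found 150 genes whose leaf minus root was larger in Bloomsdale and 292 for which it was smaller. After median-of-ratios scaling 134 of the 150 and 263 of the 292 were called again, whereas the counts were 77 and 152 with 0.01 FPKM added and 28 and 46 without Bloomsdale root 2. The ICL interaction was lost with 1 FPKM added (adjusted p = 0.0934, limma) and when each of 5 libraries was left out in turn.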

How the results depend on the processing

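Of 225 alternative values of the named genes in Bloomsdale, 204 kept their direction and side of the threshold, 13 lost the call, 3 gained it and 5 changed sign. Spo03404, Spo06839, Spo05786 and Spo19340 are among these genes and were picked for their large called changes, so their calls were likely to hold. Fits in which a gene left the test are not counted. The sign changes were those of AAE3 (Spo04424), at 0.45 after median-of-ratios scaling, 0.18 after quantile normalization and 0.089 without leaf 3 (-0.43 without leaf 2), and of APX (Spo08328), at -0.093 without leaf 1 and -0.33 without root 2 (0.70 without root 3). Genes called higher in leaf and in root numbered 2947 and 9995 as deposited, 4752 and 5074 after median-of-ratios scaling and 4440 and 6067 after quantile normalization, and 6470 root genes passed with an absolute log2 change of at least 1. Of the 15 genes, 5 were higher in root as deposited, 2 after median-of-ratios scaling and 3 with that fold threshold. With 1 library left out, leaf calls ranged from 2185 to 2791 and root calls from 6333 (without root 2) to 11274 (without leaf 2), and among the 15 genes from 2 to 4 and from 2 to 5. A fit without a root library still asked for 1 FPKM in 3 libraries, so genes on in root alone, ICL and the aminotransferase among them, left the test, while the cause of the other losses was not tested. Genes on in leaf alone, Spo03404 among them, left the fits without a leaf library in the same way. Limma-voom on the recovered fragments gave 2919 and 10006.

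The interaction counts of 150 and 292 were 303 and 639 with 1 FPKM added, 77 and 152 with 0.01 FPKM added, and ranged from 28 to 217 and from 46 to 628 with 1 library left out. The ICL interaction was lost with 1 FPKM added (-1.55, adjusted p = 0.0934, limma). Uncalled interactions changed sign for Spo04579 (-1.94 without PI175311 leaf 2, -0.64 without root 1, -1.11 without root 2, 2.91 without root 3), Spo00830 (-0.79 without leaf 2, -0.66 without root 2, 2.48 without root 3), Spo26769 (-0.59 without leaf 2, 1.87 without root 3), Spo06839 (-0.95 without root 1, 2.77 without root 3) and Spo04424 (0.040 without leaf 3, 0.11 without root 3, and 0.19 without Bloomsdale leaf 3). In PI175311 the root calls, 7618 as deposited, were 3457 after median-of-ratios scaling and 4467 to 6843 with 1 library left out, and the leaf calls 1798 to 2635. The genes on in leaf and off in root numbered 103, or 50 with at least 5 FPKM and 63 with exactly 0 in root, and 110 to 153 with 1 library left out. Those on in root numbered 482, or 248 with at least 5 FPKM, and 500 to 620. Leaving out a library removes a condition of the rule, so these counts could not fall, and the stricter rules could not raise them.

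Same-numbered leaf and root libraries of Bloomsdale deviated together with correlations of -0.152, 0.283 and 0.342, and different-numbered ones with -0.460 to 0.360. Deviations from means of 3 libraries cannot exclude pairing. The sources state no pairing, and the main fits did not pair the numbers. With the replicate block, 2967 leaf and 10170 root genes were called, 97.5% and 97.9% of the unblocked calls among them, Spo12053 and the ICL interaction lost their calls (adjusted p = 0.0918 and 0.0746, limma), and the interaction counts were 50 and 80.

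Depth limits genes at few fragments. ICL in leaf rests on 1 fragment, and Spo04579 and Spo00830 on 0.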
